A study of Mus musculus with 246 samples.

Results

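The mRNA response of the anterior cingulate cortex (ACC) to a social encounter was measured in male mice that met an unfamiliar mouse before the brain was collected (SocialInteraction) and in mice that did not (NoInteraction). All libraries labelled as ACC were used, 41 of the 246 libraries of the study, with 1 library for each mouse, made from pooled punches of both hemispheres. The 20 SocialInteraction mice (6 Ctrl_Vehicle, 7 ELA_Vehicle and 7 ELA_SAFit2) had 10 minutes with the other mouse, and the 21 NoInteraction mice (7 in each background) had none. The time from the encounter to brain collection is not given in the sources used here.

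Every mouse was an outbred CD1 male whose dam had received a depot gel after birth. The brains were collected in adulthood. In Ctrl_Vehicle the litter had standard bedding and the gel was empty. ELA_Vehicle mice had the same empty gel and early life adversity, that is, limited bedding and nesting material in the first postnatal days. ELA_SAFit2 mice had early life adversity and a gel with SAFit2, an inhibitor of FKBP51, which reached the pups through milk. No background combined standard bedding with SAFit2, so an effect of the drug without adversity cannot be seen here, and the litter of each mouse was not used here. The response was estimated over the backgrounds together, with background as a covariate.

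The ACC lies on the medial wall of the frontal cortex and takes part in the processing of social and emotional information. Neurons that become active first induce a small set of rapid transcription factors, such as the Fos and Egr families, and then effector genes that act on synapses, on secreted peptides and on the signalling cascade itself. A stressful or arousing event also releases corticosterone, which activates the glucocorticoid receptor in neurons and glia and induces genes such as Fkbp5, whose product FKBP51 in turn restrains that receptor. Cells that make more secreted and membrane protein need the chaperones of the endoplasmic reticulum (ER), and heat shock chaperones fold proteins in the cytosol.

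Total estimated counts were between 25199944 and 35473422 (median 28564419) in NoInteraction and between 20804219 and 32964746 (median 28175571) in SocialInteraction libraries. Cortical markers were abundant in every library, with summed levels of glutamatergic markers of 4804 to 6718 counts per 1000000 counts (CPM) without and 4259 to 6146 CPM with social interaction. The punches differed in what else they held. Striatal markers, 11 of 11 measured, summed to 205 to 1167 CPM without and 250 to 1765 CPM with social interaction, and oligodendrocyte markers, 12 of 12 measured, to 976 to 8420 and 1674 to 7181 CPM. Sums of the 12 meningeal markers lay between 123 and 893 CPM without and between 89.1 and 631 CPM with social interaction. The library of Ctrl_Vehicle SocialInteraction mouse 89 stood apart from the rest, with a median correlation to the other libraries of 0.982 where the next lowest had 0.989. It also had the lowest astrocyte sum of all ACC libraries (3163 CPM), the highest microglial sum (307 CPM) and the highest sum of neuropeptides and trophic factors (1402 CPM).

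Social interaction was accompanied by many small differences. Of 15722 protein-coding genes tested with edgeR, 385 were higher (2.45%) and 284 were lower (1.81%) at an adjusted p under 0.05. The median log2 fold change was 0.14 among the genes called higher and -0.15 among those called lower, against -0.003 over all genes tested. Only 31 called genes differed by more than 0.5 on the log2 scale (19 higher and 12 lower), and 542, or 81%, by less than 0.25. Without the library of mouse 89 the fit called 769 genes higher and 513 lower, and 667 of the 669 calls made with all libraries were among them. Without ELA_Vehicle SocialInteraction mouse 59, whose library moved the counts most in the other direction, 276 were higher and 200 were lower.

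**Figure D1:**
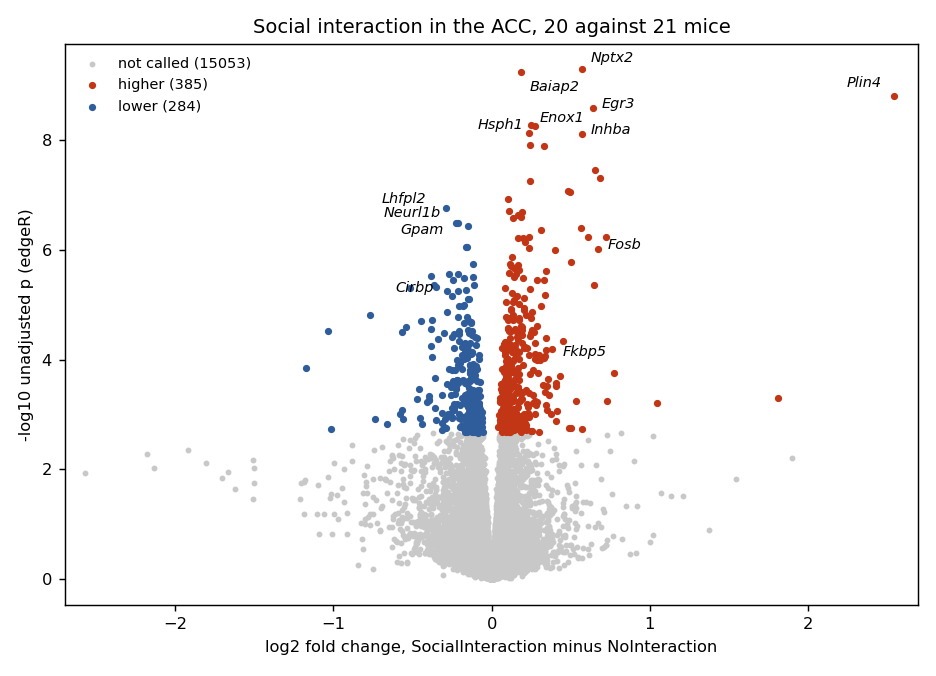
The difference between SocialInteraction and NoInteraction mice in the ACC for each of 15722 genes (x axis, log2 fold change) against the -log10 unadjusted p of the edgeR test (y axis). The 385 genes called higher are red and the 284 called lower are blue; Plin4 lies far to the right of the other genes of similar p, and the 15 genes with the smallest p all lay on the higher side.

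The gene with the smallest p was Nptx2 (ENSMUSG00000059991.8), which encodes a neuronal pentraxin that clusters glutamate receptors at synapses and is induced by activity. Its level was 39.3 CPM in the lowest, 50.9 in the median and 66.0 in the highest NoInteraction library, and 48.2, 76.9 and 102 CPM in SocialInteraction libraries. The groups overlapped, but 16 of 20 SocialInteraction mice lay above every NoInteraction mouse. The log2 fold change was 0.57 (SE 0.070, adjusted p = 4.62e-06). Baiap2, a scaffold protein of dendritic spines, went from 290 to 333 CPM (median 314) without to 316 to 402 CPM (median 355) with social interaction. Of its 20 SocialInteraction values 18 lay above all NoInteraction values, although the log2 fold change was only 0.19 (SE 0.023, adjusted p = 4.62e-06).

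Egr3 (ENSMUSG00000033730.5), a zinc finger transcription factor of the rapid response, ranged from 87.2 to 232 CPM (median 140) without and from 175 to 316 CPM (median 230) with social interaction. All 20 SocialInteraction mice lay above the NoInteraction median and 9 lay above every NoInteraction mouse (log2 fold change 0.64, SE 0.084, adjusted p = 1.03e-05). The other genes that rose with the 15 smallest p-values were Enox1, Hsph1, Mapk6, Inhba, Ina, Manf, Sdf2l1, Dapk2, Sorcs3, Hspa5, Homer1 and Plin4. Mapk6 encodes an atypical MAP kinase, and its log2 fold change was 0.23 (SE 0.032). Dapk2, a calmodulin-regulated kinase, was scarce and went from a median of 1.06 to 1.56 CPM. Sorcs3, a sorting receptor of the postsynapse, rose by 0.25 (SE 0.037, adjusted p = 6.83e-05), and 19 of 20 SocialInteraction mice lay above the NoInteraction median.

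**Figure D2:**
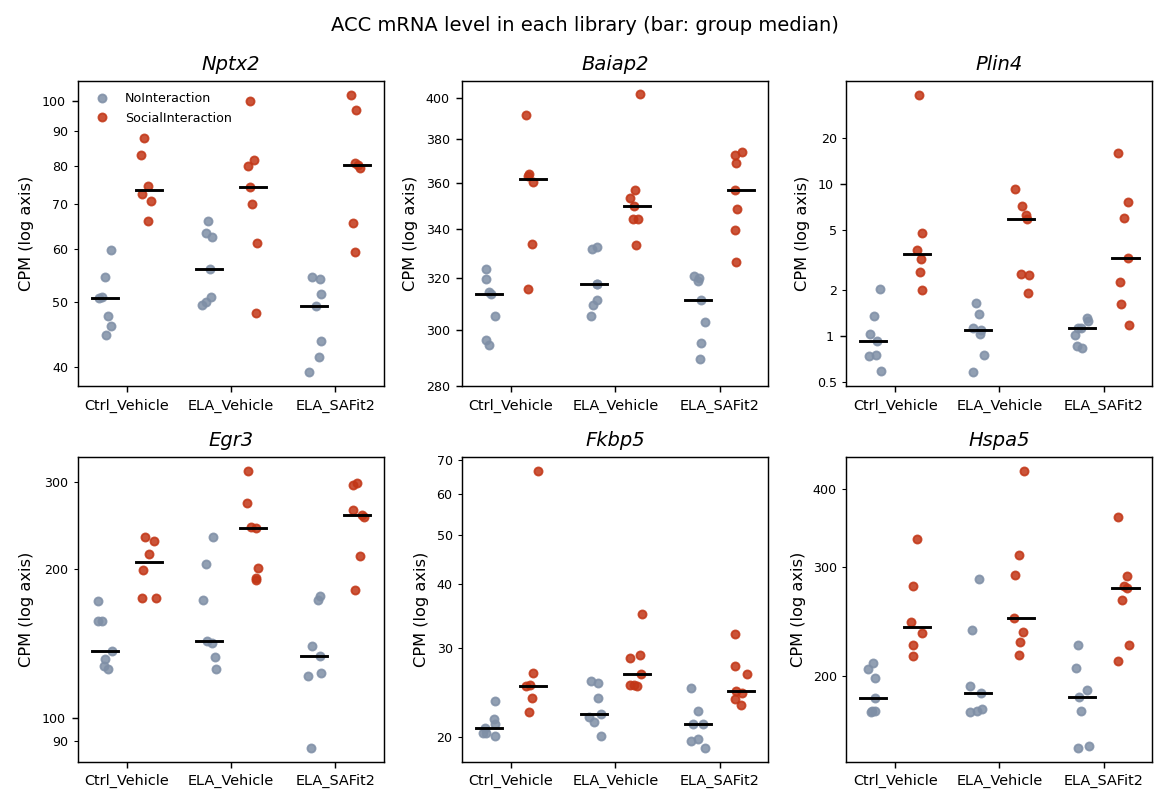
Levels of 6 genes that rose in the ACC, in CPM on a log axis, for each library of the 3 backgrounds. Points are mice and bars are group medians; in each background the SocialInteraction median lay above the NoInteraction median for all 6 genes, and Plin4 and Fkbp5 of 1 Ctrl_Vehicle mouse (38.4 and 66.8 CPM) lay far above the rest.

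Rapid transcription factors were called unevenly. Of 30 measured members 5 rose and none fell (median log2 fold change 0.13), where 2.45% of all genes tested were higher. They were Egr3, Fosb, Crem, Ier5 and Fosl2. Fosb went from 8.63 to 26.5 CPM (median 13.03) without to 14.5 to 36.2 CPM (median 21.6) with social interaction. All SocialInteraction values of Fosb lay above the NoInteraction median, and its log2 fold change was 0.68 (SE 0.117, adjusted p = 0.000405). Crem, which encodes activators and repressors of cAMP-driven transcription, rose by 0.24 (SE 0.040) and Fosl2, a partner of Jun proteins, by 0.36 (SE 0.088). The fastest genes of this class did not pass the test. Fos was at 3.17, 10.0 and 46.8 CPM (lowest, median and highest) without and at 4.11, 19.9 and 41.4 CPM with social interaction. The SocialInteraction range thus lay inside the NoInteraction range, although 19 of 20 SocialInteraction mice lay above the NoInteraction median of Fos. Its log2 fold change of 0.31 had an SE of 0.270 (adjusted p = 0.622). Npas4 had a log2 fold change of 0.28 (SE 0.224, adjusted p = 0.573) and Egr1 of 0.24 (SE 0.135, adjusted p = 0.388). Egr2, also uncalled, had a log2 fold change of 0.69 (SE 0.272, adjusted p = 0.154). With these errors a rise of the size seen in Fosb was not detectable for Fos.

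Among 45 measured effector genes of neuronal activity 13 rose, against 2.45% of all genes, and none fell (median 0.09). Besides Nptx2, Sorcs3 and Homer1 they were Inhba, Vgf, Rheb, Bdnf, Cdkn1a, Pim1, Gadd45b, Rgs2, Pcsk1 and Scg2. Homer1, a scaffold that links glutamate receptors to internal calcium stores, was at 132 to 268 CPM (median 187) without and 195 to 438 CPM (median 254) with social interaction, and all 20 values lay above the NoInteraction median (log2 fold change 0.49, SE 0.076, adjusted p = 9.33e-05). Inhba, the activin A subunit, rose by 0.57 (SE 0.079) and Vgf, the precursor of secreted peptides, by 0.31 (SE 0.052). Bdnf, the neurotrophin, went from a median of 25.6 to 32.2 CPM (log2 fold change 0.34, SE 0.074, adjusted p = 0.00451). Arc, which trims glutamate receptors from synapses, spread from 25.7 to 292 CPM without and from 44.3 to 269 CPM with social interaction and did not pass (0.38, SE 0.259, adjusted p = 0.488). In the peptide and trophic factor list Vgf and Bdnf, which the effector list also holds, were called among 24 measured members (median 0.07). With the mean log2 CPM of oligodendrocyte, meningeal and striatal markers in each library as covariates, 4 members were called. Oxtr, the oxytocin receptor, had medians of 7.33 and 7.36 CPM, and its log2 fold change was 0.00 (SE 0.062).

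Feedback regulators of the MAP kinase pathway rose in 3 of 21 measured cases (median 0.06; 2.45% of all genes rose), namely Spry2, Spry4 and Spred1, which dampen growth factor signalling. Spry2 rose by 0.15 (SE 0.034, adjusted p = 0.00642) and all 20 SocialInteraction mice lay above its NoInteraction median. The count fell to 1 with the mean log2 CPM of oligodendrocyte, meningeal and striatal markers as covariates and was 5 without mouse 89.

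**Figure D3:**
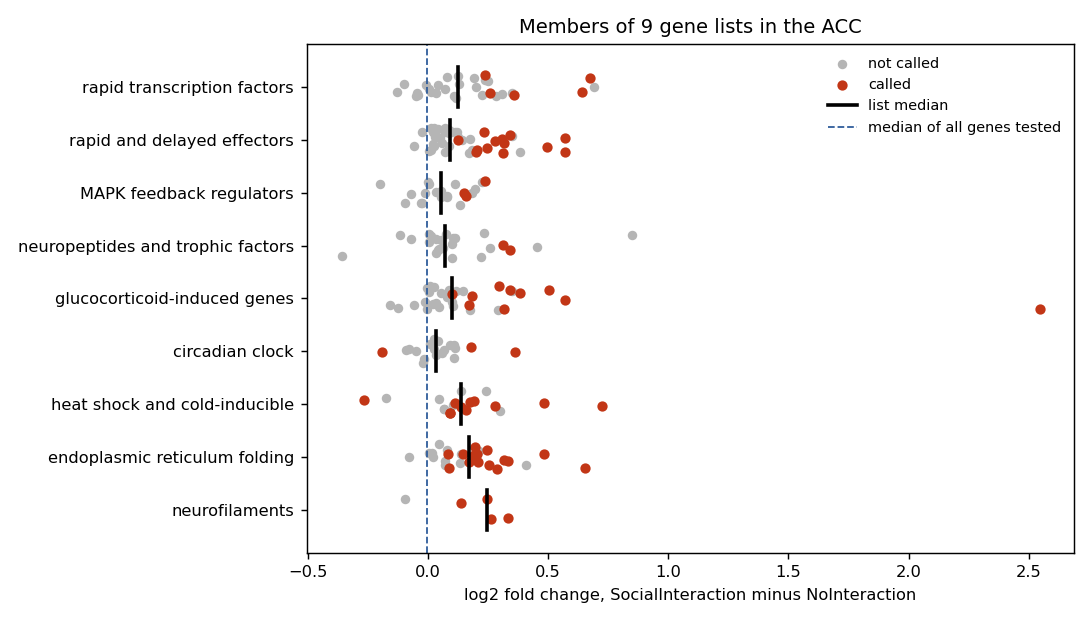
Log2 fold changes of SocialInteraction against NoInteraction for the members of 9 gene lists (1 row each). Red points are genes called in the ACC, grey points are not called, black bars are list medians and the dashed line is the median of all genes tested; the ER folding and neurofilament rows sit furthest to the right as a group (medians 0.17 and 0.24).

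Of 27 genes of ER folding 15 rose, where 2.45% of all genes did, 12 did not pass the test and none fell (median log2 fold change 0.17). This list was gathered after values were seen, so its counts are a description. Hspa5 (BiP, the main ER chaperone) was at 154 to 286 CPM (median 186) without and 211 to 428 CPM (median 257) with social interaction. All of its SocialInteraction values lay above the NoInteraction median (log2 fold change 0.48, SE 0.074, adjusted p = 9.33e-05). Sdf2l1, a cofactor of BiP, went from a median of 4.65 to 7.06 CPM (0.65, SE 0.096) and Manf, a secreted ER protein, from 28.7 to 36.5 CPM (0.33, SE 0.047). Calr and Canx, the lectin chaperones, rose by 0.25 (SE 0.051) and 0.09 (SE 0.022), and Creld2 by 0.29 (SE 0.066). Of the stress sensors in the ER membrane, Atf6 rose by 0.14 (adjusted p = 0.0151), and the log2 fold changes of Ern1 and Eif2ak3 were 0.00 (adjusted p = 0.991) and 0.04 (adjusted p = 0.428). Xbp1, a transcription factor downstream of Ern1, rose by 0.17 (SE 0.043, adjusted p = 0.0162). SocialInteraction mouse 59 had the highest value of all SocialInteraction mice in 16 of the 27 genes, and 15 members were still higher without it.

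Several of these genes carry the ER stress response element in their promoters. Promoter windows of 300 bases (250 before to 50 after a RefSeq start, GRCm38.p6) were matched to 12212 of the genes tested, and the element, CCAAT and CCACG with 9 bases between them, was searched on both strands. It occurred in 23 of 12212 genes (0.188%), in 8 of 308 called higher (2.6%) and in 0 of 220 called lower. The 8 were Hspa5, Hsp90b1, Calr, Canx, Creld2, Pdia6, Ero1b and Adcy3, and the first 7 act in ER folding. Upstream stretches of 5 of them are shown 5′ to 3′ on the strand of the gene to let the spacing be compared. The capitals mark the element, which Calr and Creld2 carry in the reverse direction, and Hsp90b1 holds a further match outside the stretch.
Hspa5: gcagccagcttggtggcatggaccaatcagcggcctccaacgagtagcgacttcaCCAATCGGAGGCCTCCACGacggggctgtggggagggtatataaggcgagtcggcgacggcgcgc
Hsp90b1: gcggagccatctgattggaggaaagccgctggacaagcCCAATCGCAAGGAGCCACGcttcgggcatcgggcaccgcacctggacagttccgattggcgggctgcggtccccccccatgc
Calr: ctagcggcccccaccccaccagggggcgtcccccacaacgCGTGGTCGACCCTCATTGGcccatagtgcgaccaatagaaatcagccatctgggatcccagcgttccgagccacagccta
Creld2: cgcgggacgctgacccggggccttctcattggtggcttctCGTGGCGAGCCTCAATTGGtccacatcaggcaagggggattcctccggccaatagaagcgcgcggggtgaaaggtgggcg
Pdia6: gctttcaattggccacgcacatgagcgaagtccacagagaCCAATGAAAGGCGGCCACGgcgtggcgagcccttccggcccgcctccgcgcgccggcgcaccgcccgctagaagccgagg
They lie at chr2:34771970-34772089 (plus strand), chr10:86705575-86705694 (minus), chr8:84847014-84847133 (minus), chr15:88819480-88819599 (plus) and chr12:17266451-17266570 (plus). In Hspa5 the element starts 65 bases before the RefSeq start and in Calr 162 bases before it. The match is a description of the letters and says nothing of binding in these mice.

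Of 20 measured members of the heat shock and cold-inducible list 10 rose (median 0.14), where 2.45% of all genes did, and 1 fell; Hspa5 is counted in this list too. Those that did not pass included Hspa1a (0.24, adjusted p = 0.274), Hspa1b (0.30, adjusted p = 0.158), Dnajb1 (0.07, adjusted p = 0.264) and the mitochondrial Hspe1 (0.15, adjusted p = 0.0855). Mice 59 and 89 had the highest sums of this list (7488 and 7342 CPM, against at most 6421.1 CPM without social interaction), and 9 members were higher without mouse 59 and 11 without mouse 89. Hsph1, a nucleotide exchange factor of HSP70, went from 294 to 372 CPM (median 317) without to 333 to 513 CPM (median 383) with social interaction. Of the SocialInteraction mice 15 lay above every NoInteraction mouse (log2 fold change 0.28, SE 0.038, adjusted p = 1.45e-05). Hspb1, the small heat shock protein, rose by 0.72 (SE 0.122), Dnaja1 by 0.14 (SE 0.022), Hspa8, the constitutive HSP70, by 0.16 (SE 0.034) and Hspd1, the mitochondrial chaperonin, by 0.09 (SE 0.021). The member that fell was Cirbp, the cold-inducible RNA-binding protein, from a median of 57.29 to 49.02 CPM (-0.27, SE 0.049, adjusted p = 0.000863). Rbm3, which cold also induces, had a log2 fold change of -0.17 (SE 0.059) and missed the threshold (adjusted p = 0.0876). The heat shock element, GAA, TTC and GAA with 2 bases between each and the next, was searched likewise and was in the promoter window of 66 of 12212 genes (0.54%) and of 5 of 308 called higher (1.62%), Hsph1, Hspd1, Chordc1, Grsf1 and Lingo3, and in 3 of 220 called lower (1.36%). In Hspd1 (chr1:55087997-55088116, minus strand) a pair of overlapping matches, in capitals, formed the following stretch.
Hspd1: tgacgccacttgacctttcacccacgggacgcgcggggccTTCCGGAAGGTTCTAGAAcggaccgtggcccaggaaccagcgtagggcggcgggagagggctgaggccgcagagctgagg

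The cAMP response element, TGACGTCA, was searched in the same windows. It was in 394 of 12212 promoter windows (3.23%), in 15 of 308 genes called higher (4.87%) and in 7 of 220 called lower (3.18%). Only 35 of the 45 effector genes had a window, and 5 of these, called or not, carried the element (14.3%). Among the effectors called higher, Scg2 (secretogranin II, a granule protein; chr1:79440027-79440146, minus strand) and Pcsk1 (the prohormone convertase that processes such proteins; chr13:75089737-75089856, plus strand) carried it, in capitals here.
Scg2: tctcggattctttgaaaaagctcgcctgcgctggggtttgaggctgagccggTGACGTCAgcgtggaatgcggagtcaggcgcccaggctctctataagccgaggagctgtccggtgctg
Pcsk1: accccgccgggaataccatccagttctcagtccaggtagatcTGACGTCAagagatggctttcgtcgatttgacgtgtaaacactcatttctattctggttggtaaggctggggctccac
Scg2 rose by 0.20 (SE 0.057, adjusted p = 0.0357) and Pcsk1 by 0.21 (SE 0.058, adjusted p = 0.0321). Of 41 fits that left out 1 library, 31 kept the call of Scg2 and 33 that of Pcsk1. Pcsk1 lost its call with the marker covariates and with 2 surrogate variables.

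Genes induced through the glucocorticoid receptor rose in part, and unequally between mice. Of 32 measured members 10 rose, against 2.45% of all genes, and none fell (median 0.10). Plin4 (ENSMUSG00000002831.15), a lipid droplet protein, had the largest change of any called gene. It was at 0.583 to 2.05 CPM (median 1.04) without and 1.19 to 38.4 CPM (median 3.48) with social interaction, and 16 of 20 SocialInteraction mice lay above every NoInteraction mouse (log2 fold change 2.54, SE 0.329, adjusted p = 8.14e-06). Fkbp5 (ENSMUSG00000024222.18), whose product SAFit2 inhibits, was at 19.1 to 25.8 CPM (median 21.3) without and 22.5 to 66.8 CPM (median 25.4) with social interaction, so that all 20 SocialInteraction mice lay above the NoInteraction median (0.38, SE 0.086, adjusted p = 0.00585). Gpd1, an enzyme that links glycolysis to lipid synthesis, rose by 0.18 (SE 0.030) and Klf9, a transcription factor, by 0.17 (SE 0.029). Further members that rose were Fam107a, Cdkn1a, Tsc22d3 (GILZ), Hif3a, Sult1a1 and Azin1. Cdkn1a is counted in the effector list too. Sgk1, a kinase often used as a marker of the hormone, had a log2 fold change of 0.05 (SE 0.047, adjusted p = 0.614) and Per1 of 0.02 (SE 0.067, adjusted p = 0.913). Nr3c1, the receptor itself, had medians of 107.4 and 109.8 CPM (0.01, SE 0.039).

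Ctrl_Vehicle SocialInteraction mouse 57 had the highest value of the SocialInteraction mice in 18 of the 32 genes and in 9 of the 10 that were called. Over all 385 genes called higher it was the highest in 46. Its Plin4 level of 38.4 CPM was followed by 16.0 CPM in ELA_SAFit2 mouse 63, 9.28 in ELA_Vehicle mouse 21, 7.65 in a further ELA_SAFit2 mouse and 7.18 in ELA_Vehicle mouse 53. Of these 5 mice 4 were also among the 5 highest for Hif3a and for Sult1a1, 3 for Fkbp5 and Gpd1, 2 for Tsc22d3, Klf9, Fam107a and Azin1 and 1 for Cdkn1a. For uncalled members of the list the count was 3 for Zbtb16, 2 for Sgk1 and 1 for Per1. Among genes of other lists 2 of these mice were among the 5 highest for Hspa5 and for Homer1 and 0 for Nptx2 and Egr3. A count of 2 was thus not particular to this list. Without mouse 57 the log2 fold change of Plin4 was 2.08 (adjusted p = 3.05e-06) and that of Fkbp5 0.27 (adjusted p = 0.000149), so both calls stood. Sult1a1 (0.39, adjusted p = 0.104), Hif3a (0.33, adjusted p = 0.123) and Azin1 (0.09, adjusted p = 0.0508) were not called without it, which left 7 of 32. Other mice mattered too for the first of these calls. Of 41 fits that left out 1 library, 15 kept the call of Sult1a1, 19 that of Hif3a and 40 that of Azin1.

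**Figure D4:**
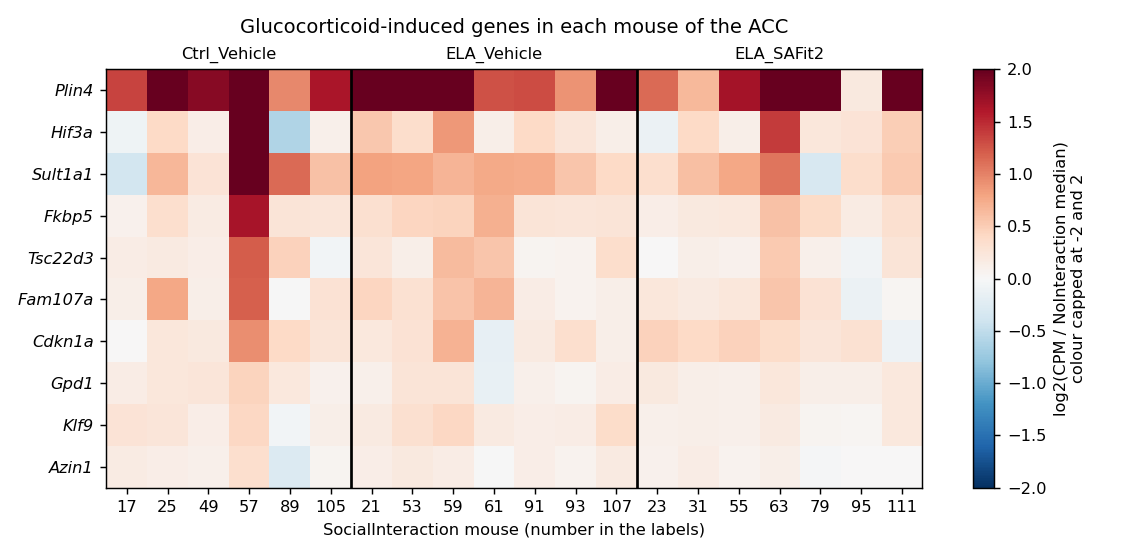
The 10 called glucocorticoid-induced genes (rows) in each of the 20 SocialInteraction mice (columns, with the mouse numbers of the labels), as log2 of CPM over the NoInteraction median; colours are capped at -2 and 2. Ctrl_Vehicle mouse 57 was above every NoInteraction mouse in all 10 rows, and Plin4 was above the NoInteraction median in all mice.

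Clock genes and neurofilaments gave a few further calls. Per2 went from a median of 29.4 to 42.0 CPM (0.36, SE 0.095, adjusted p = 0.0202) and Per3 rose by 0.18 (SE 0.048), whereas Nr1d1, a repressor of the clock, fell by 0.19 on the log2 scale (SE 0.057, adjusted p = 0.0428). These were 2 higher and 1 lower of 19 measured clock genes (median 0.03), where 2.45% and 1.81% of all genes were. Per2 lost its call with the marker covariates and with 2 surrogate variables, which left 1 higher, and Nr1d1 was called in only 18 of 41 fits that left out 1 library (adjusted p = 0.0724 without mouse 59 and 0.0567 without mouse 57). Of 5 neurofilament genes, gathered after their values were seen, Nefl, Nefm, Nefh and Ina rose. Nefm, the medium subunit of the axonal cytoskeleton, was at 110.5 to 201 CPM (median 152) without and 148 to 262 CPM (median 183) with social interaction (0.33, SE 0.062). Ina, which copolymerizes with it, rose by 0.24 (SE 0.034, adjusted p = 2.04e-05). Prph, a filament mainly of peripheral neurons, had medians of 0.571 and 0.572 CPM and its log2 fold change was -0.10 (SE 0.124).

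Genes that fell did so by small amounts. The smallest p belonged to Lhfpl2, a tetraspan membrane protein, at 15.1 to 22.8 CPM (median 17.6) without and 11.3 to 19.5 CPM (median 14.1) with social interaction; 19 of 20 SocialInteraction mice were at or below the NoInteraction median (-0.29, SE 0.046, adjusted p = 0.000161). It was followed by Neurl1b, a ubiquitin ligase of the Notch pathway (-0.22, SE 0.037), Gpam, which starts glycerolipid synthesis (-0.21, SE 0.035), and Hnrnpdl, an RNA-binding protein (-0.15, SE 0.024). Pcif1, which methylates the base next to the mRNA cap, went from a median of 51.9 to 46.1 CPM (-0.16, SE 0.027). Nop58, a core protein of small nucleolar particles, and Polr3e, a subunit of RNA polymerase III, fell by 0.12 on the log2 scale (both SE 0.021), and Arglu1, a modulator of splicing, by 0.11 (SE 0.021). The remaining ones beside Cirbp were Rsrp1, Sash1, Niban1, Arfgap3, Slc9a9 and Mmp14, a membrane metalloprotease that went from a median of 11.2 to 8.35 CPM (-0.36, SE 0.068, adjusted p = 0.00111). None of the 20 SocialInteraction mice was above the highest NoInteraction mouse in any of the 15. The choice of these genes by their fall and small p favours that count, so it does not show separation of the groups. The ranges overlapped in each of the 15. In Lhfpl2 the highest SocialInteraction value (19.5 CPM) lay above the lowest NoInteraction value (15.1 CPM).

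Markers of neuron classes were not called. This was 0 of 13 glutamatergic (median -0.001) and 0 of 14 GABAergic markers (median 0.03). Among glial and vascular markers a few were: Gja1 (-0.10, SE 0.029) and Aqp4 (-0.20, SE 0.059) of 10 astrocyte markers fell, as did P2ry12 (-0.17, SE 0.036) of 11 microglial ones and Slco1a4 (-0.18, SE 0.040) and Myh11 (-0.35, SE 0.101) of 15 endothelial and mural ones. Ly6c1 (0.28, SE 0.063) of the endothelial list and Cspg4 (0.16, SE 0.045) of 12 oligodendrocyte lineage markers rose. Of 41 fits that left out 1 library, 14 kept the call of Aqp4, 19 of Gja1, 27 of Myh11 and 34 of Cspg4. P2ry12, Slco1a4 and Ly6c1 kept theirs in all 41. Over all genes tested 2.45% were higher and 1.81% lower. List medians were 0.01 for astrocytes, -0.03 for microglia, -0.08 for endothelial and mural cells and -0.09 for the oligodendrocyte lineage. The called astrocyte markers, Ly6c1 and Cspg4 thus went against the medians of their lists. Medians of the uncalled lists were 0.25 for striatum, -0.32 for meningeal fibroblasts, -0.14 for blood and -0.05 for 8 choroid plexus markers. In tissue punches, fewer cells of a type and less RNA per cell cannot be told apart. With the mean log2 CPM of oligodendrocyte, meningeal and striatal markers in each library as covariates, 367 genes were higher and 262 lower. Of the 669 calls 453 were shared. Among the named genes, Fosl2, Pcsk1, Spry4, Spred1, Azin1, Per2, Nr1d1, Hsp90aa1, Ahsa1, Canx and Xbp1 lost their calls in that fit, and so did Aqp4, Gja1 and Myh11.

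Within single backgrounds few genes passed. The contrasts of 1 model with 6 groups called 0 genes in Ctrl_Vehicle (0%; 2073 at an unadjusted p under 0.05), 3 in ELA_Vehicle (0.0191%; 1740) and 11 in ELA_SAFit2 (0.07%; 1350). Among those of ELA_Vehicle was Mapk6 (0.30, adjusted p = 0.0262). Libraries of a background fitted alone gave 1, 0 and 32 calls with edgeR. Nptx2 had log2 fold changes of 0.58 in Ctrl_Vehicle, 0.37 in ELA_Vehicle and 0.75 in ELA_SAFit2, and Egr3 had 0.50, 0.52 and 0.88. For Fkbp5 they were 0.59, 0.28 and 0.29, and the medians went from 20.9 to 25.3 CPM in Ctrl_Vehicle, from 22.3 to 26.7 CPM in ELA_Vehicle and from 21.3 to 24.7 CPM in ELA_SAFit2. The value in Ctrl_Vehicle rests on mouse 57 (66.8 CPM, the other 5 at 22.5 to 26.8 CPM): the difference of mean log2 CPM there was 0.46 with it and 0.22 without it. A call in a single background does not show that the response differed. The test of the difference itself, an interaction of background and social interaction in edgeR, called 0 of 15722 genes (0%; 930 at an unadjusted p under 0.05, smallest adjusted p = 0.103). The adjusted p of that test was 0.77 for Nptx2, 0.77 for Egr3 and 0.79 for Fkbp5. DESeq2's likelihood ratio test called 2, Cwc22 and Bfsp2. The smallest p-values in edgeR were those of Gm13697, Gm13691 and Bfsp2, a lens filament gene, followed by Cwc22, a splicing factor. Gm13693, Gm13698 and Gm13694 ranked soon after. Cwc22 and these Gm genes all had negative log2 fold changes in ELA_Vehicle and positive ones in ELA_SAFit2. Group medians of Gm13697 were at most 0.45 CPM. Its highest values were 15.6 CPM in ELA_Vehicle NoInteraction and 16.7 CPM in ELA_SAFit2 SocialInteraction. Gm13697 and Gm13691 lie beside each other with further copies of the same length in RefSeq, and counts of such copies are uncertain because reads can be shared.

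The same mice were also sampled in the medial prefrontal cortex (mPFC), the cortical area next to the ACC, and in the basolateral amygdala (BLA). Of 60 genes chosen for how their levels follow the mouse between mPFC and BLA, the profile in the ACC matched best with the same mouse number in 41 of 41 libraries for either region, so the mouse was kept as a block. No gene was called for a difference of the social response between ACC and mPFC (0 of 16345, 0%; edgeR, 445 at an unadjusted p under 0.05). The smallest p-values were those of Nptx2 (ACC minus mPFC -0.33, SE 0.064, adjusted p = 0.133), Bdnf (-0.30, SE 0.063, adjusted p = 0.149) and Tmem53 (0.40, SE 0.093, adjusted p = 0.535). In the mPFC's own fit Nptx2 rose by 0.88 and Bdnf by 0.64, beside 0.57 and 0.34 in the ACC.

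Between ACC and BLA, a nucleus of the amygdala, 1 of 16517 genes differed (0.00605%; 1005 at an unadjusted p under 0.05). It was Megf11, a cell surface protein with EGF-like repeats that helps to space neurons of the retina. Megf11 rose in the ACC from 9.98 to 17.6 CPM (median 14.3) to 13.7 to 21.1 CPM (median 16.5), and 19 of 20 SocialInteraction mice lay above the NoInteraction median (0.24, SE 0.054, adjusted p = 0.00668). Its log2 fold change was 0.47 in the mPFC and -0.13 in the BLA (adjusted p = 0.36 there), and ACC minus BLA was 0.36 (SE 0.063, adjusted p = 0.0166). Sorcs3 was next (0.23, SE 0.044, adjusted p = 0.0561), with 0.25 in the ACC and 0.02 in the BLA, followed by Fgfr1 (0.31, SE 0.069, adjusted p = 0.260). Without the replicate block, that is, with libraries of the same mouse not paired, 0 genes differed between ACC and BLA (smallest adjusted p = 0.27) and 0 between ACC and mPFC. Plin4, Hspa5 and Hsph1 rose in each region's own fit, with 1.76, 0.34 and 0.24 in the BLA and 2.003, 0.50 and 0.33 in the mPFC.

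**Figure D5:**
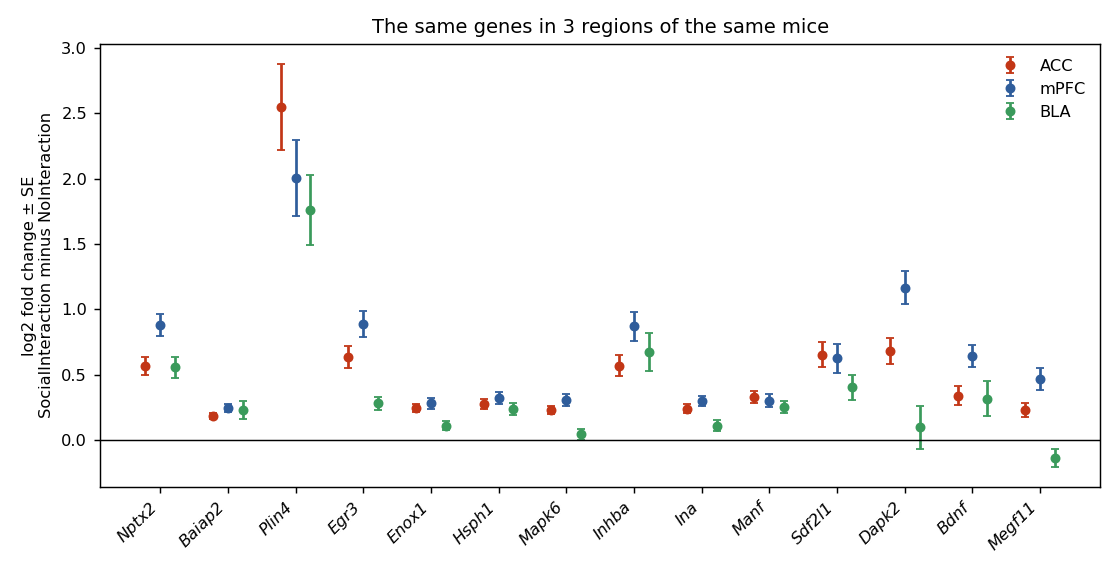
Log2 fold changes ± SE (y axis) of SocialInteraction against NoInteraction in the ACC (41 libraries, red), mPFC (blue) and BLA (green) for the 12 genes that rose with the smallest p in the ACC and for Bdnf and Megf11. Megf11 is the gene whose response differed between ACC and BLA, with -0.13 in the BLA and 0.24 in the ACC.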

How the data were processed

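Punches of 6 regions from 41 mice were sequenced as stranded poly-A libraries from RNA with a RIN above 7. The authors deposited estimated counts from salmon, summed to genes and not scaled, and the submitters' processing notes also name STAR, DESeq2 and the build GRCm39. Versions are not given in the sources used here. Of the ACC values 11.76% were not whole, and all were rounded. Groups came from the sample titles. Identifiers were matched to GENCODE M21 (52073 of 56691), 978 were typed through RefSeq symbols, and 3640 were not used.

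Genes annotated as protein-coding entered the test if their counts summed to 100 or more and exceeded 0 in 6 or more ACC libraries. They were tested with edgeR 4.0.16 (TMM, quasi-likelihood test, Benjamini-Hochberg over all genes tested, adjusted p under 0.05) in R 4.3.3, with background as a covariate. SE is the log2 fold change over the root of the F statistic. CPM were scaled by TMM. Differences between regions were fitted with the mouse as a block. On simulated counts for this comparison (15722 genes), 74 of 100 genes changed by 0.25 on the log2 scale were recovered. Of those changed by 0.5, 93 of 100 were, with 14 false calls. The changed genes were drawn from those with a mean count of at least 20. The simulated counts held no background effects and no outlying libraries. Recovery of scarcer genes or of smaller changes was not simulated. Alternatives used DESeq2 1.42.0 and sva 3.50.0, and figures matplotlib 3.10.9 in Python 3.11.15.

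Named genes were the 15 with the smallest p in each direction, called members of the lists, the 3 smallest p in the background and region tests, and uncalled members as examples. The members and lists were chosen with earlier results of these data known, and 2 lists (ER folding, neurofilaments) were added after values were seen. Coordinates and promoter sequences are RefSeq's for GRCm38.p6, another build than the authors'. Mice of a group may share litters, and the tests treated mice as independent, so their p-values may be too small. Library totals of 20804219 to 35473422 counts limit the precision of the least abundant genes.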

Additional observations from a re-analysis of the deposited data

Results flagged for a closer look

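In 36 tests (the 6 genes that rose with the smallest p in each of 6 groups), 4 found a library apart from its group by Dixon's ratio. Chance gives about 1 in 20 tests. The 36 tests shared the same mice, so they were not independent, and mouse 59 lay apart in more than 1 of them. Plin4 was at 38.42 CPM in Ctrl_Vehicle SocialInteraction mouse 57, where the other mice of the group were at 2.02 to 4.73 CPM. In ELA_Vehicle SocialInteraction mouse 59, Baiap2 was at 401.8 CPM (others 333 to 357) and Hsph1 at 512.7 CPM (others 352 to 375). Hsph1 was at 372.4 CPM in ELA_SAFit2 NoInteraction mouse 7 (others 294 to 317). Over the 385 genes called higher, mouse 59 had the highest value of the 20 SocialInteraction mice in 131, and the values of mouse 89 were the highest in 91 and the lowest in 90. The social response of Megf11 differed between ACC and BLA by 0.3636 on the log2 scale, by the test of the difference itself.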

How the results depend on the processing

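No paired analysis was possible because NoInteraction and SocialInteraction mice of the ACC are different animals; the pairing by mouse was used between regions, where without the replicate block 0 genes in place of 1 differed between ACC and BLA. DESeq2's size factors gave 2 there. Over 10 alternatives on all or most libraries (DESeq2, its size factors, 3 other filters, covariates and the 3 libraries with the highest striatal sums left out, the last chosen after seeing the data), 339 to 507 genes were higher and 242 to 372 lower. Leaving out 1 library each gave 276 to 769 higher (at most 413 but for mouse 89) and 200 to 513 lower (at most 311 but for mouse 89). Backgrounds fitted alone called 1, 0 and 23 higher and 0, 0 and 9 lower (Ctrl_Vehicle, ELA_Vehicle, ELA_SAFit2), with fewer samples. DESeq2 called 2 genes in the test between backgrounds. No value of a named gene reversed among called genes. The 89 named genes that were called lost their call in 186 cases with 1 library left out (3463 kept it), in 36 under the 10 alternatives (854 kept it) and in 253 with backgrounds fitted alone (14 kept it). The backgrounds have 13 or 14 mice each, and genes near 1 CPM are limited by depth.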
